A study of Mus musculus with 12 samples.

Results

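The regions described here are 1000 bp stretches of the mouse genome that are dense in CpG dinucleotides and carried almost no DNA methylation in blood stem and progenitor cells of the groups not labelled leukemic. A tile was taken when it held at least 20 covered CpGs and when its methylation level, methylated reads over all reads, averaged under 10% over 9 libraries, those of the Nras G12D, Tet2 knockout and nonleukemic double mutant groups. Of 81162 autosomal tiles with at least 3 CpGs covered by 10 or more reads in every library, 10806 (13.3%) met the rule. They were 95.1% of the 11363 CpG-dense tiles and held 424802 of the 921697 covered CpGs (46.1%). The low level of these tiles in the 9 libraries is what chose them and is given as a description. The libraries labelled leukemic did not enter the choice.

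Methylation was read by reduced representation bisulfite sequencing of LSK cells (Lin- Sca1+ cKit+), the bone marrow fraction that holds the stem cells and early progenitors, from C57BL/6 mice 6 months old. The groups, of 3 libraries each, were Nras(G12D), a signalling GTPase locked in its active state; Tet2(-/-), loss of an enzyme that oxidises methylcytosine; both changes together without leukemia; and both changes together with leukemia. Both mutations were conditional and limited to blood-forming tissue, and the Cre driver is not given in the sources used here. The leukemic group was read from the prefix L of the titles and from the series' design. The descriptions of its 3 libraries carry the code TN-BMT, which the labels do not expand, so whether these cells came from transplant recipients is not given in the sources used here, and such an origin and leukemia cannot be told apart in any leukemic difference. Wild-type cells were not analysed here, so every difference is between mutants. The labels do not say whether replicates were separate animals, and the p-values then reflect library-to-library spread only, which may be technical. Methylation tables hold no transcripts, so the sorted cell type was not checked against markers. Libraries held 96300485 to 199736369 reads over listed cytosines, and a tile held 376 to 37969 reads in a library, with a median of 4440. Chromosome Y positions were listed at 251 or more in Tet2 knockout replicates 1 and 2 and nonleukemic double mutant replicate 1, and at 18 or fewer in the other libraries.

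Stretches dense in CpG are known as CpG islands and cover the start sites of most broadly expressed genes. They are kept free of methylation in normal cells while most other CpGs of the genome are methylated. Tet2 oxidises methylcytosine as a step of its removal, its loss is common in myeloid malignancy, and methylation of islands is a much studied change in leukemia.

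The deposited positions are on build mm9, for which no annotation was used here. Tiles were tied to genes by matching the spacing of their covered CpGs to the promoter sequences of RefSeq (build GRCm38.p6), so a named start is the RefSeq start whose CpG pattern was found at that place. The 3 sequences below are the 250 bases before the start, 5′ to 3′ on the gene's strand, of the genes at or beside which a change described further on was found. In the Gm41845 sequence, capitals mark the 5 CpGs with a mean of at least 10% in the Tet2 knockout. They were also high in most nonleukemic double mutant libraries, and near 0 in the Nras G12D and leukemic double mutant libraries. In the Cbfa2t3 and Rapgefl1 sequences, capitals mark the CpGs covered in every library (12 and 13 of them), which were near 0 in every group. CpGs just past the start were low as well. Higher levels were found farther downstream, from 241 bp at Cbfa2t3 and from 695 bp at Rapgefl1.
Gm41845 (mm9 chromosome 19, plus strand, start at 40346056): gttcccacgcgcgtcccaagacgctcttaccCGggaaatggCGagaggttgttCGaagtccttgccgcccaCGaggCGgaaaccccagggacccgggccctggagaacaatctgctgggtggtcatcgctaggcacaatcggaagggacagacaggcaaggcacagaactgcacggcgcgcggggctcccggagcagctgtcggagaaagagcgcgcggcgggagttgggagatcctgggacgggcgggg
Cbfa2t3 (mm9 chromosome 8, minus strand, start at 125202075): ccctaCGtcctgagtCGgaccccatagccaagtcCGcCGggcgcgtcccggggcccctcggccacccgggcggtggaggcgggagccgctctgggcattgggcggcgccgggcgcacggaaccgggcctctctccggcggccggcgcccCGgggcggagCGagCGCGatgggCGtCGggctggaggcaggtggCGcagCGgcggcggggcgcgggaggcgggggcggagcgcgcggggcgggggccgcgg
Rapgefl1 (mm9 chromosome 11, plus strand, start at 98698099): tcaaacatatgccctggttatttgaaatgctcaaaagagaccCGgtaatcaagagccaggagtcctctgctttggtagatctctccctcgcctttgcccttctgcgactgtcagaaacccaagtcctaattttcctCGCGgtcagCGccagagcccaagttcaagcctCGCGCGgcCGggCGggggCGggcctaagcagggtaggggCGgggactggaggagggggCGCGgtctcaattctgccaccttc

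Over the covered CpGs upstream of each start, the group means were 0.290% in Nras G12D, 0.286% in the Tet2 knockout, 0.331% in the nonleukemic and 0.591% in the leukemic double mutant at Cbfa2t3. At Rapgefl1 they were 0.227%, 0.679%, 0.276% and 0.336% in the same order of groups.

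Most tiles were close to fully unmethylated. The mean over the 9 libraries was under 1% in 8408 tiles (77.8%), 1 to 2% in 958, 2 to 5% in 1024 and 5 to 10% in 416 (3.85%), with a median of 0.299%. Of the CpGs inside the tiles, 96.3% had a mean under 5% and 585 (0.138%) a mean of 50% or more. Tiles with a mean of 5 to 10% were mixed along their length: 36.5% held a CpG at 50% or more, against 0.107% of tiles under 1%. A tile held a median of 35 CpGs and at most 126. The tiles formed 8720 runs, of which the longest joined 5 adjacent tiles.

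The sequences at the tiles can be described only where a promoter was matched, and the choice of CpG-dense tiles and the match on at least 10 CpGs favour CpG-rich, GC-rich promoters. A RefSeq start was matched at 4018 of the tiles. The 300-base promoter sequences matched to a tile, 3690 in all, had a median GC content of 69.3% against 53.0% over the 31396 autosomal promoters, and a ratio of observed to expected CpGs of 0.889 against 0.389. The motif CCGG, the site cut by MspI in making the libraries, was in all (100%) of the matched and 53.5% of all promoters of that length, so the match itself depends on it, as it does for GC content and the CpG ratio, and nothing is read from these differences. The motif TATAAA, searched on both strands, was in 2.03% of the matched and 8.32% of all promoters. Tiles at a matched start had a 9-library mean of 5% or more in 1.37% of cases, and tiles with no matched start in 5.32%. The leukemic libraries, which the rule did not use, had a mean of 5% or more in 1.42% and 4.18% of them.

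Around the matched starts, methylation was lowest in the 100 bp before the start and rose on both sides in every group. In that bin the mean CpG level was 0.308% ± 0.103 in Nras G12D, 0.395% ± 0.125 in the Tet2 knockout, 0.333% ± 0.0252 in the nonleukemic and 0.387% ± 0.0533 in the leukemic double mutant (SD, n = 3 each). In the bin from -900 to -801 bp the levels were 2.05% ± 0.153, 2.45% ± 0.210, 2.20% ± 0.102 and 1.98% ± 0.112. The means of the 4 groups differed by less than the largest group SD in most bins. They differed by more in every bin from -1000 to -601 bp, where the Tet2 knockout was highest and the leukemic double mutant lowest. These differences were not tested.

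**Figure D1:**
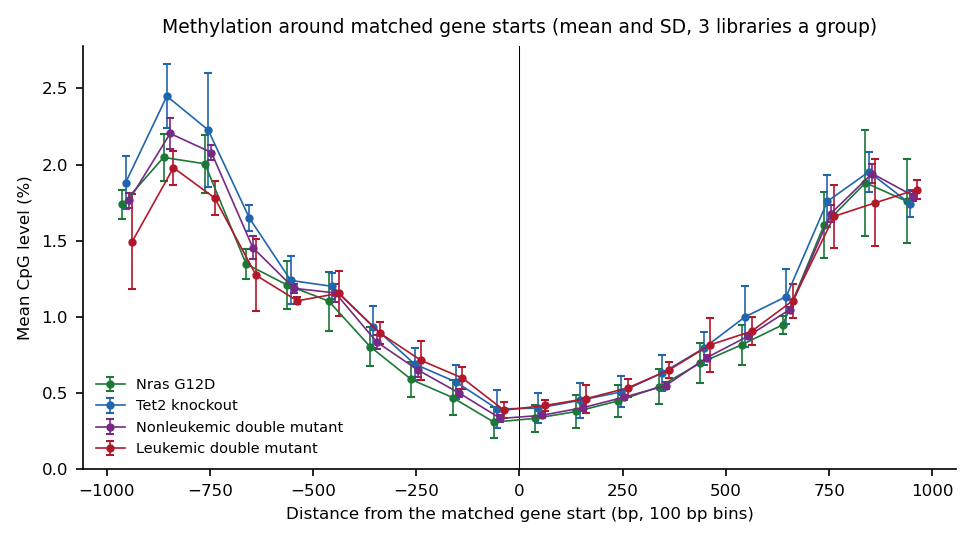
Mean CpG level in percent against distance from the matched gene start in 100 bp bins, for CpGs of tiles matched to a start; points are means of 3 libraries a group and bars the SD. All 4 groups have their lowest level, 0.308% to 0.395%, just before the start.

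Taken over all 10806 tiles, no genotype stood apart. The mean level was 0.852% ± 0.128 in Nras G12D, 0.996% ± 0.145 in the Tet2 knockout, 0.926% ± 0.0191 in the nonleukemic and 0.938% ± 0.108 in the leukemic double mutant (SD, n = 3 each). Library means were 0.776%, 0.781% and 1.0% in Nras G12D, 0.841%, 1.13% and 1.02% in the Tet2 knockout, 0.945%, 0.906% and 0.928% in the nonleukemic and 1.05%, 0.925% and 0.838% in the leukemic double mutant. The groups overlapped, and the differences between their means were of the size of the SD. The rule took tiles low over the 9 libraries without leukemia, which limits the differences among those 3 groups. Tiles at 10% or more numbered 96 in Tet2 knockout replicate 2, which had the fewest reads, and 12 to 56 in the other libraries. The mitochondrial genome, whose cytosines are usually taken as unmethylated, read as methylated at 0.222% to 1.0015%. It was highest in Nras G12D replicate 3, whose tiles also had the highest median of any library, 0.448% against 0.172% to 0.402% in the others. The part of incomplete conversion in levels under 1% was not tested.

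**Figure D2:**
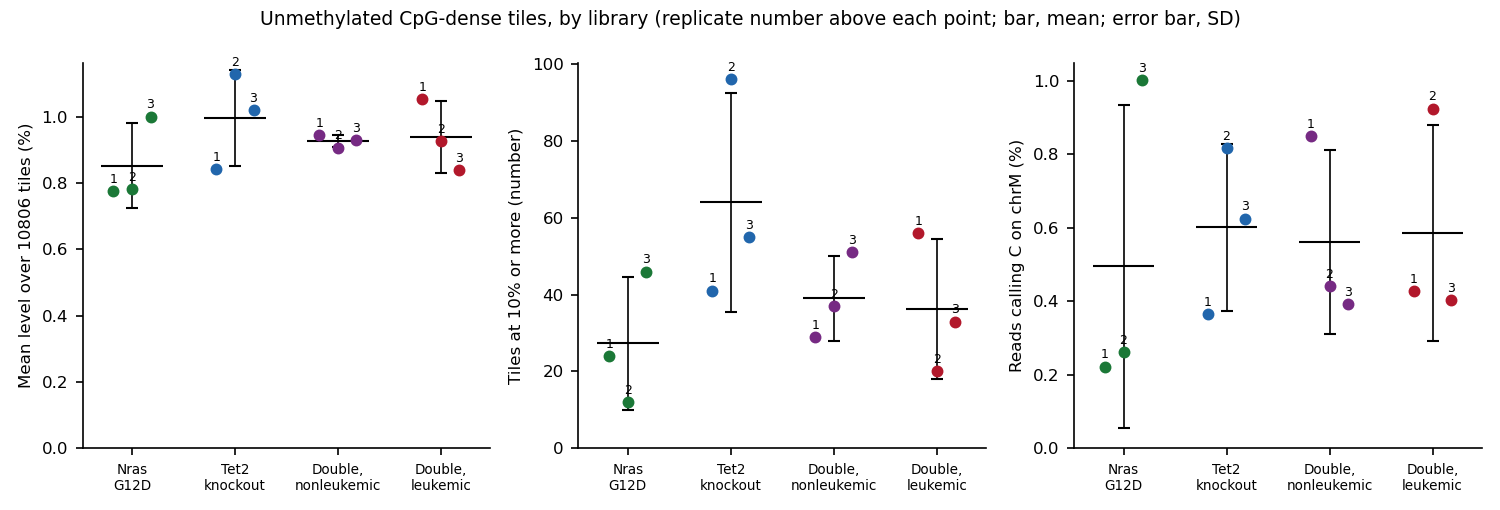
For each library, from left to right, the mean methylation level over the 10806 tiles in percent, the number of tiles at 10% or more, and the percent of mitochondrial reads calling C; bars are group means and error bars the SD of 3 libraries. The groups overlap in every panel, and Tet2 knockout replicate 2 has the most tiles at 10% or more (96).

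The tiles differed little between the groups without leukemia, but the rule that chose them limits how far they could differ. It took tiles with a mean under 10% over the same 9 libraries that are compared here. Tiles high in any of these genotypes therefore tended to be left out, and the lack of calls is partly set by the rule. A tile was called when the quasi-binomial test gave an adjusted p under 0.05 over all tested tiles and the group means differed by at least 10 points. Between the Tet2 knockout and Nras G12D no tile was called higher or lower (0% of all tested tiles were called in either direction), and 510 were higher and 151 lower at an unadjusted p under 0.05 (6.12% of the tiles, against 5.98% of all tested tiles). Between the nonleukemic double mutant and Nras G12D none of these tiles was called, against 0.00246% of all tested tiles called higher and 0% lower, and 171 were higher and 63 lower at an unadjusted p under 0.05 (2.17% against 2.85%). Between the nonleukemic double mutant and the Tet2 knockout none was called (0% of all tested tiles in either direction), and 169 were higher and 290 lower at an unadjusted p under 0.05 (4.25% against 3.36%). These shares are near those of all tested tiles. With limma on log ratios of methylated to unmethylated reads the calls were also 0 in these 3 comparisons. The unadjusted limma counts, in the same order, were 363 and 230, 280 and 61, and 337 and 122, and their shares of all tested tiles are not given here. In the last comparison the lean differed by test, with more tiles lower in the quasi-binomial test and more higher with limma. The median difference of the tiles was 0.05, 0.03 and -0.01 points in the 3 comparisons, and 0.42, 0.14 and -0.19 points over all tested tiles. A rise of 5 points or more in the group mean was seen at 16 tiles in the Tet2 knockout against Nras G12D (0.148% of the tiles, against 13.8% of all tested tiles) and at 9 tiles in the nonleukemic double mutant against Nras G12D (0.0833% against 9.36%). Both comparisons use the same Nras G12D libraries. Because the rule took tiles low over the libraries compared, these shares and those of all tested tiles are not a like comparison.

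**Figure D3:**
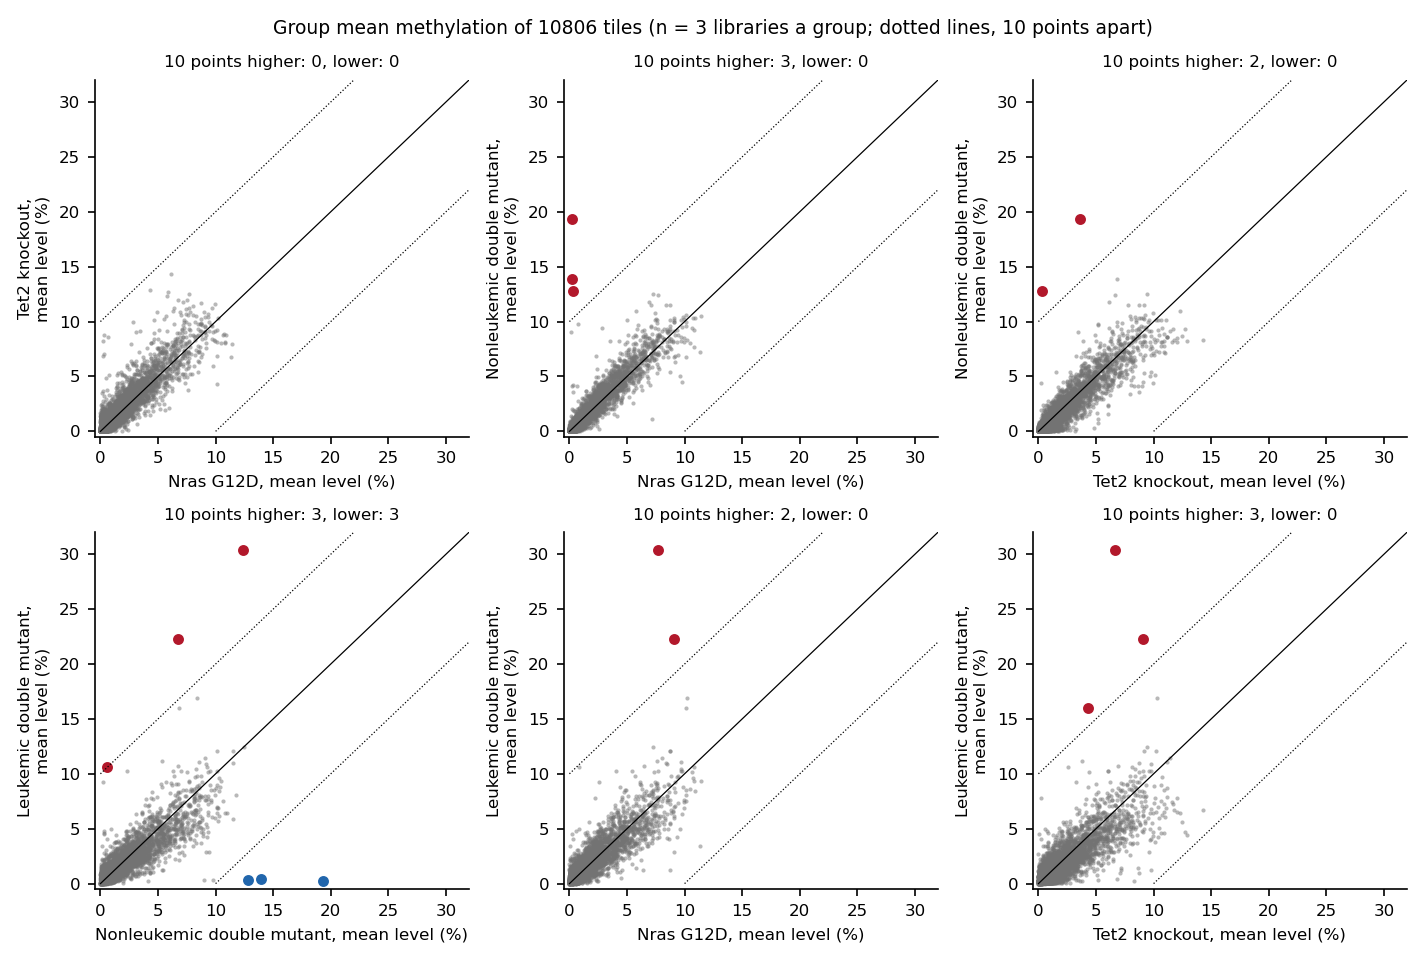
Group mean methylation of the 10806 tiles in percent, one group on each axis, in 6 pairwise panels; the solid line is equality, dotted lines are 10 points apart, and coloured points lie beyond them. Nearly all tiles sit in the lower left corner, and no panel has more than 3 tiles beyond a dotted line on either side.

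No tile passed the test between the groups without leukemia, and the tiles with the largest differences are given here by their values. In the nonleukemic double mutant 2 tiles, with the largest and the next but one largest difference from Nras G12D, held a run of neighbouring CpGs that were all higher than in the other groups. In a tile at chr6:81915000-81915999 (21 CpGs) the libraries read 0.183%, 0.0592% and 0.476% in Nras G12D, 0.0362%, 8.50% and 2.35% in the Tet2 knockout, 18.4%, 26.9% and 12.6% in the nonleukemic and 0.383%, 0.205% and 0.0415% in the leukemic double mutant. Every nonleukemic double mutant library was above every library of the other groups. The mean was 19.3% ± 7.18 (SD, n = 3) there and 0.239% ± 0.214 in Nras G12D, a difference of 19.04 points with an adjusted p of 0.0799. The leukemic double mutant was 19.1 points lower than the nonleukemic one (adjusted p 0.0026), a call that was lost with limma. The high CpGs lay in a span of 138 bp, from 81915735 to 81915872, where 8 of 12 CpGs were at least 5 points above all libraries of the other groups. These 8 CpGs, picked for that, read 27.7%, 38.3% and 20.9% in the 3 nonleukemic double mutant libraries, and 0% to 0.887% in the others apart from 6.56% in Tet2 knockout replicate 2.

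The second tile with such a run was at chr12:70683000-70683999 (27 CpGs). It read 0.0976%, 0.138% and 0.802% in Nras G12D, 0.193%, 0.231% and 0.394% in the Tet2 knockout, 10.2%, 20.8% and 7.49% in the nonleukemic and 0.793%, 0.278% and 0.0163% in the leukemic double mutant. Again the nonleukemic double mutant libraries did not overlap with any other. The difference was 12.5 points from Nras G12D (adjusted p 0.0799), 12.5 points from the Tet2 knockout (adjusted p 0.155), and -12.45 points for the leukemic against the nonleukemic double mutant (adjusted p 0.000994). That lower call ended without nonleukemic double mutant replicate 2, with a fit on the 6 libraries compared and with limma. Without nonleukemic double mutant replicate 3 the tile was called higher in this group than in Nras G12D and in the Tet2 knockout. The 10 CpGs picked by the same rule were consecutive, from 70683809 to 70683906, at means of 24.9%, 40.7% and 17.9% in the 3 libraries and at most 0.564% in any other library. Runs of at least 4 neighbouring CpGs, each without overlap and 5 points higher in the nonleukemic double mutant, were at these 2 tiles and at 4 (0.00493%) of all tested tiles. No such run was found at the tiles for any other set of groups, against 0% or 0.00123% of all tested tiles, and 0.0862% for the leukemic double mutant lowest.

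On chromosome 12, 3 tiles were higher in most Tet2-null libraries without leukemia than in Nras G12D, by differences that did not pass the test. The tile at chr12:20926000-20926999 (25 CpGs) read 0.214%, 0.184% and 0.288% in Nras G12D, 10.54%, 0.0667% and 9.94% in the Tet2 knockout, 12.5%, 10.2% and 19.1% in the nonleukemic and 0.465%, 0.249% and 0.475% in the leukemic double mutant. Tet2 knockout replicate 2 stood with Nras G12D and the leukemic libraries, and the other 5 Tet2-null libraries without leukemia stood above them. The difference from Nras G12D was 6.62 points in the Tet2 knockout (adjusted p 0.628) and 13.7 points in the nonleukemic double mutant (adjusted p 0.190). The leukemic double mutant was 13.55 points below the nonleukemic one (adjusted p 0.00278, not called with limma). Tiles at chr12:20996000-20996999 and chr12:21117000-21117999 had the same libraries high and low, with 6.74% to 12.8% and 6.46% to 11.8% in the nonleukemic double mutant, and Tet2 knockout replicate 2 at 0.454% and 0.182%. Against Nras G12D the adjusted p were 0.727 and 0.421 at the first of them, and 0.615 and 0.0799 at the other, for the Tet2 knockout and the nonleukemic double mutant. Their leukemic minus nonleukemic differences were -9.41 (adjusted p 0.00312) and -8.71 points (adjusted p 0.000952). The neighbouring tile at chr12:21118000-21118999 stayed between 0.0938% and 2.82% in all 12 libraries. The tiles starting at 20996000 and 21118000 were singled out after their values were seen.

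At Rapgefl1, which encodes a protein resembling guanine nucleotide exchange factors of Rap GTPases, the edge of the island differed between the leukemic and the nonleukemic double mutant. The tile (72 CpGs, chr11:98698000-98698999) read 2.77%, 2.69% and 3.05% in Nras G12D, 3.37%, 5.82% and 9.23% in the Tet2 knockout, 10.7%, 8.57% and 8.94% in the nonleukemic and 4.43%, 2.18% and 1.95% in the leukemic double mutant. The nonleukemic double mutant overlapped with the Tet2 knockout at its replicate 3 and with no library of the other 2 groups. The leukemic minus nonleukemic difference was -6.54 points (adjusted p 0.00903), below the 10 points needed for a call. With limma only 1 of all the tiles was lower in this comparison at an adjusted p under 0.05. The nonleukemic double mutant differed by 6.55 points from Nras G12D (adjusted p 0.428) and by 3.25 points from the Tet2 knockout (adjusted p 1.0), which did not pass the test. The 12 CpGs that lie 695 to 881 bp downstream of the start were at 15.95% ± 1.47 in Nras G12D, 24.6% ± 12.4 in the Tet2 knockout, 38.1% ± 3.01 in the nonleukemic and 13.03% ± 0.961 in the leukemic double mutant (SD, n = 3 each). The 60 CpGs from 98698017 to 98698692, which span the start, averaged 0.420%, 1.39%, 0.890% and 0.868% in the same order. Rapgefl1 falls outside the rule for naming tiles and was chosen after its values were seen, as was Gm41845.

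Gm41845, a gene model with no described function, had its high CpGs within the 250 bases printed above. Its tile (28 CpGs, chr19:40345000-40345999) read 0.210%, 0.0933% and 0.346% in Nras G12D, 8.31%, 3.86% and 12.6% in the Tet2 knockout, 4.33%, 0.299% and 7.66% in the nonleukemic and 0.160%, 0.101% and 0.391% in the leukemic double mutant. All Tet2 knockout libraries and 2 of the 3 nonleukemic double mutants were above every Nras G12D and leukemic library, while nonleukemic double mutant replicate 2 was among them. The Tet2 knockout minus Nras G12D difference was 8.05 points (adjusted p 0.261), and the leukemic minus Tet2 knockout difference was -8.05 points (adjusted p 0.00237). The 5 CpGs in capitals, 174 to 219 bp upstream of the start, averaged 29.7%, 9.31% and 42.4% in the Tet2 knockout and 15.98%, 0.709% and 29.95% in the nonleukemic double mutant, against 0% to 0.149% in the other 6 libraries. A further covered CpG between them, 185 bp upstream, read 0% in all Tet2 knockout and nonleukemic double mutant libraries.

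3 tiles were higher in every Tet2 knockout library than in any other library by at least 5 points on average (0.0278% of the tiles, against 1.13% of all tested tiles). The largest was at chr6:120442000-120442999 (45 CpGs), whose centre is 1464 bp from the matched start of Tmem121b. It read 5.79%, 4.56% and 2.54% in Nras G12D, 11.3%, 16.3% and 11.2% in the Tet2 knockout, 5.82%, 8.37% and 10.6% in the nonleukemic and 3.86%, 5.80% and 3.59% in the leukemic double mutant. The Tet2 knockout was highest, and the nonleukemic double mutant came next without overlap with the remaining groups. The difference from Nras G12D was 8.63 points (adjusted p 0.51), and the leukemic minus Tet2 knockout difference was -8.52 points (adjusted p 0.00463). The other two, at chr7:140316000-140316999 and chr1:137947000-137947999, had Tet2 knockout means of 12.7% ± 2.96 and 12.5% ± 0.995 (SD, n = 3) against 5.88% ± 1.99 and 7.67% ± 3.18 in Nras G12D, with adjusted p of 0.792 and 0.824.

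In the leukemic double mutant a few tiles were higher and a few lower than in other groups, while lower levels were common among all tested tiles. Against the nonleukemic double mutant 2 tiles were called higher and 3 lower, against 0.115% and 3.87% of all tested tiles. Against Nras G12D 2 were called higher and 0 lower (0.0887% and 1.96% of all tested tiles), and against the Tet2 knockout 3 higher and 0 lower (0.158% and 7.5%). At an unadjusted p under 0.05, 618 tiles were higher and 485 lower than in the nonleukemic double mutant (10.2% of the tiles, against 22.3% of all tested tiles), 873 higher and 329 lower than in Nras G12D (11.1% against 19.5%), and 818 higher and 774 lower than in the Tet2 knockout (14.7% against 27.7%). With limma the calls were 0 in both directions in all 3 comparisons. Its unadjusted counts of higher and lower tiles were 229 and 391, 504 and 257, and 591 and 457. Against the nonleukemic double mutant the lean differed by test, with more tiles higher in the quasi-binomial test and more lower with limma. Limma shares of all tested tiles are not given here, for these counts or the adjusted ones below. The median leukemic difference of the tiles was 0.04, 0.06 and 0.01 points, and that of all tested tiles -2.01, -1.41 and -2.48 points. A fall of 5 points or more from the nonleukemic double mutant was seen at 0.0925% of the tiles and at 33.9% of all tested tiles. A tile at a level near 0 has little room to fall. The rule took tiles low over the 9 libraries that the leukemic ones are compared with, which limits falls and favours rises. Counts and shares of these tiles and of all tested tiles are therefore not a like comparison here. At an adjusted p under 0.05 with no minimum size, 45 tiles were higher and 63 lower than in the nonleukemic double mutant (0.218% and 4.42% of all tested tiles), with median differences of 1.40 and -2.70 points. The same counts were 29 and 17 against Nras G12D (0.163% and 2.21% of all tested tiles) and 125 and 145 against the Tet2 knockout (0.445% and 9.22%). With limma most of these were lost: the counts of higher and lower tiles were 1 and 1, 0 and 0, and 28 and 11 in the same order.

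The clearest gain was beside Cbfa2t3, which encodes a transcriptional corepressor of the ETO family that acts in blood stem cells and red cell precursors. The tile at chr8:125201000-125201999 (23 CpGs), just downstream of the matched start, read 6.30%, 11.4% and 9.48% in Nras G12D, 7.12%, 12.9% and 7.15% in the Tet2 knockout, 6.19%, 7.88% and 6.19% in the nonleukemic and 26.1%, 19.9% and 20.9% in the leukemic double mutant. All 3 leukemic libraries were above the other 9. The leukemic mean, 22.3% ± 3.30 (SD, n = 3), was 15.5 points above the nonleukemic double mutant (adjusted p 0.00081), 13.2 points above Nras G12D (adjusted p 0.00672) and 13.2 points above the Tet2 knockout (adjusted p 0.00303). The call was lost with limma, and no higher call was made with tiles shifted by 500 bp or, for this tile, with tiles chosen on the mean of all 12 libraries, which its leukemic level lifts past 10%. With a fit on the 6 libraries compared, the calls against Nras G12D (adjusted p 0.152) and the Tet2 knockout (adjusted p 0.0861) ended too. Against the Tet2 knockout it also ended without the 3 libraries with chromosome Y reads.

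The gain beside Cbfa2t3 was small nearest the start and larger farther from it, and the level of every group rose with distance. The 8 CpGs 88 to 134 bp downstream were at 1.58% ± 0.531 in Nras G12D, 2.46% ± 0.977 in the Tet2 knockout, 0.482% ± 0.383 in the nonleukemic and 2.82% ± 2.30 in the leukemic double mutant (SD, n = 3 each). The 10 CpGs 241 to 366 bp downstream were at 6.12% ± 3.77, 5.35% ± 2.75, 6.08% ± 0.369 and 26.6% ± 4.65. The 5 CpGs 860 to 999 bp downstream were at 27.6% ± 10.8, 23.0% ± 8.20, 17.1% ± 5.92 and 48.96% ± 2.54. Of the 23 CpGs, 19 had their highest group mean in the leukemic double mutant.

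The largest leukemic level was at chr15:76288000-76288999 (27 CpGs). It read 11.6%, 8.19% and 3.22% in Nras G12D, 3.56%, 3.07% and 13.4% in the Tet2 knockout, 7.80%, 10.4% and 19.1% in the nonleukemic and 32.7%, 37.6% and 20.7% in the leukemic double mutant. The leukemic libraries lay above all others, with leukemic replicate 3 next to nonleukemic double mutant replicate 3. The differences were 17.9 points from the nonleukemic double mutant (adjusted p 0.0427), 22.7 from Nras G12D (adjusted p 0.033) and 23.7 from the Tet2 knockout (adjusted p 0.00905). The first ended without any 1 of the 3 nonleukemic libraries or of leukemic replicates 1 and 2, the second without any 1 Nras G12D library or leukemic replicate 2, and the third held without any 1 library. All 3 ended without the 3 libraries with chromosome Y reads, with limma (adjusted p 0.400, 0.238 and 0.0797) and with a fit on the 6 libraries compared (0.120, 0.169 and 0.114). With the replicate block the first (0.102) and the second (0.0880) ended. The rise was spread over the covered stretch from 76288010 to 76288238, in which 26 of 27 CpGs were highest in the leukemic double mutant.

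Another tile was called against the Tet2 knockout alone, at chr19:8845000-8845999 (21 CpGs). It read 5.79%, 7.14% and 17.2% in Nras G12D, 6.37%, 2.19% and 4.42% in the Tet2 knockout, 6.33%, 2.95% and 11.1% in the nonleukemic and 15.3%, 16.7% and 16.1% in the leukemic double mutant. Nras G12D replicate 3 was above all leukemic libraries. The leukemic mean was 11.7 points above the Tet2 knockout (adjusted p 0.0293), 9.23 above the nonleukemic double mutant (adjusted p 0.0799) and 5.96 above Nras G12D (adjusted p 0.322). The call ended without Tet2 knockout replicate 2 or 3 or leukemic replicate 2, without the 3 libraries with chromosome Y reads, with limma and with a fit on the 6 libraries compared.

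**Figure D4:**
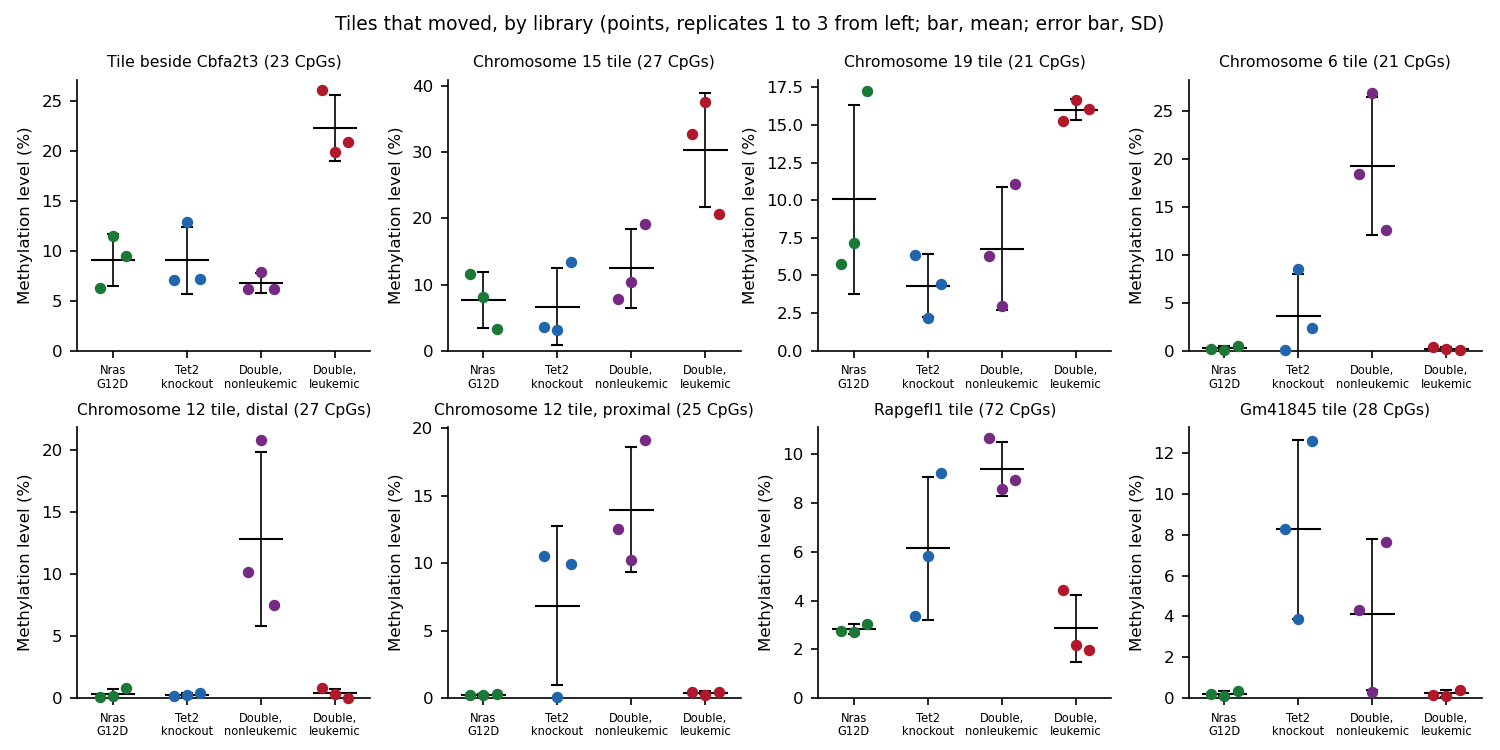
Methylation level in percent of 8 tiles in each library, with group means as bars and the SD of 3 libraries as error bars; the distal and proximal chromosome 12 tiles start at 70683000 and 20926000, and the chromosome 19 tile at 8845000. The tile beside Cbfa2t3 and the chromosome 15 tile are highest in all 3 leukemic libraries, and in the leukemic libraries the chromosome 6 tile and the lower panels are near their Nras G12D level.

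**Figure D5:**
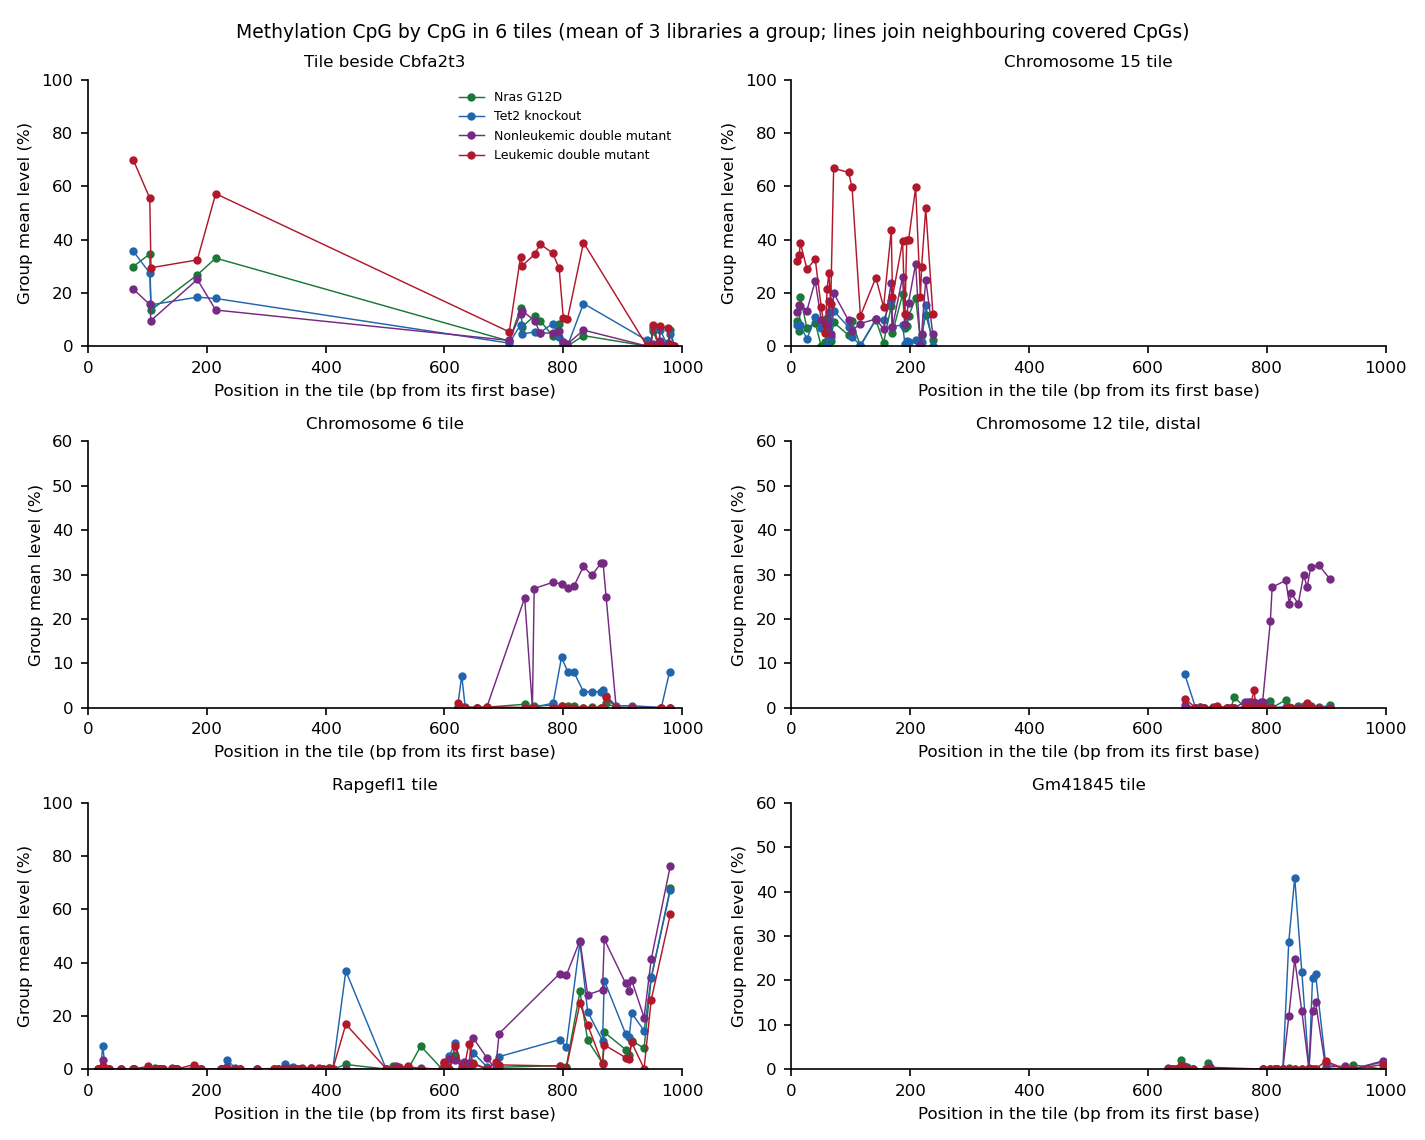
Group mean methylation in percent of each covered CpG against its position in the tile in bp, for 6 tiles, with 1 line per group (mean of 3 libraries); lines join neighbouring covered CpGs and bridge stretches without data. The high levels at the chromosome 6 and distal chromosome 12 tiles and at Gm41845 lie in short runs of CpGs, and those at Rapgefl1 at the end of the tile away from the start.

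The largest leukemic falls were those from the nonleukemic double mutant at the 3 tiles called lower, with differences of -19.07 points on chromosome 6 and -13.55 and -12.45 points on chromosome 12, where the leukemic level was near that of Nras G12D. Falls below all other groups were smaller. 4 tiles were at least 5 points lower in the leukemic double mutant than in the other groups without overlap (0.0370% of the tiles, against 8.10% of all tested tiles). At chr16:17147000-17147999 (31 CpGs) the libraries read 7.11%, 6.06% and 12.97% in Nras G12D, 7.82%, 10.9% and 10.48% in the Tet2 knockout, 6.73%, 5.196% and 4.43% in the nonleukemic and 2.19%, 1.009% and 0.413% in the leukemic double mutant. All leukemic libraries were the lowest, and the nonleukemic double mutant lay below most of the rest. The leukemic difference was -8.54 points from the Tet2 knockout (adjusted p 0.00192), -7.51 from Nras G12D (adjusted p 0.00995) and -4.25 from the nonleukemic double mutant (adjusted p 0.0359). At chr7:129433000-129433999 the leukemic mean was 2.90% ± 1.12 against 9.09% to 9.61% in the other groups, and the adjusted p was 0.0117 to 0.0298. With limma 0 tiles were lower than in Nras G12D at an adjusted p under 0.05, so neither fall passed in that comparison. Against the nonleukemic double mutant 1 tile was lower with limma, and against the Tet2 knockout 11.

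The tile of Pop5, which encodes a subunit of the RNA-processing enzymes RNase P and RNase MRP, was also among these 4. It read 6.19%, 9.14% and 12.6% in Nras G12D, 9.43%, 15.01% and 6.85% in the Tet2 knockout, 8.57%, 11.2% and 7.99% in the nonleukemic and 4.26%, 4.83% and 3.52% in the leukemic double mutant. The leukemic libraries were lowest, by 6.23 points against the Tet2 knockout (adjusted p 0.0285) and by 5.11 and 5.07 points against Nras G12D and the nonleukemic double mutant (adjusted p 0.0723 and 0.056). Of its 35 CpGs, 28 had a 9-library mean under 5%. The 6 CpGs at least 10 points lower than in the nonleukemic double mutant lay from 115685149 to 115685248, upstream of the start at 115685860. Covered CpGs in the 250 bases before the start averaged 0.604%, 0.755%, 0.130% and 0.636% in the same order of groups.

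Small changes in the leukemic double mutant were more common among these tiles than large ones. Its 3 libraries were above all others at 150 tiles (1.39%, against 0.492% of all tested tiles), with a median difference of 0.76 points, and below all others at 100 tiles (0.925% against 8.57%). The rule took tiles low in the other 9 libraries, so these shares and those of all tested tiles are not a like comparison. The median difference is within the range of the mitochondrial levels, 0.222% to 1.0015%, and the part of incomplete conversion was not tested. The Tet2 knockout was highest without overlap at 50 tiles (0.463% against 1.41%), the nonleukemic double mutant at 54 (0.4997% against 0.437%), Nras G12D at 15 (0.139% against 0.245%), and the Tet2 knockout and nonleukemic double mutant together at 25 (0.231% against 1.14%). Nras G12D was lowest at 65 tiles (0.602% against 0.315%) and the Tet2 knockout lowest at 87 (0.805% against 0.224%). At least 5 points separated the sets at 2 tiles for the leukemic double mutant (against 0.205% of all tested tiles), 3 for the nonleukemic double mutant (against 0.254%) and 2 for the 2 Tet2-null groups together (against 1.01%). The leukemic mean was under 10% at 99.8% of the tiles, at 10% or more at 23 and at 20% or more at 2, those of chromosomes 8 and 15. Conversely, 73 of the 557 CpG-dense tiles outside the set were under 10% in the leukemic double mutant.

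Some high values belonged to 1 library. At chr13:93914000-93914999 (20 CpGs) leukemic replicate 1 read 30.4% (95% Wilson interval 28.5% to 32.5%, counting error only) and the other 11 libraries 0.0522% to 3.73%. It was the 1 tile of its kind here, at 20% or more in 1 library and under 5% in the others, against 0.0407% of all tested tiles. The 5 CpGs at 20% or more in that library, from 93914504 to 93914559, averaged 64.9% in that library and at most 2.15% elsewhere. In the same tile the 6 CpGs picked for a Tet2 knockout mean of 10% or more, from 93914290 to 93914333, were at 13.1%, 29.7% and 12.6% in the Tet2 knockout and at most 3.94% in the other libraries. Tet2 knockout replicate 2 alone reached 20% or more at 4 tiles, of which the highest was 28.9% at chr2:119148000-119148999, where the other libraries read 2.71% to 9.62%. At the tile of Gng10, a G protein gamma subunit, leukemic replicate 1 read 20.03% and replicates 2 and 3 4.12% and 3.58%, with 0.171% to 8.88% in the other libraries. The chromosome 2 tile and that of Gng10 were chosen after their values were seen.

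Gene lists were read at the tiles matched to 1 gene. Of 146 developmental regulators, such as homeobox genes, 23 had 24 tiles, and their median level was 1.42% in Nras G12D, 1.61% in the Tet2 knockout, 1.44% in the nonleukemic and 1.49% in the leukemic double mutant. The 10 tiles of 10 of 80 housekeeping genes were lower, with medians of 0.202%, 0.261%, 0.288% and 0.226%. The medians of all tiles were 0.276%, 0.366%, 0.267% and 0.376%. The 7 tiles of 6 of 40 blood transcription factors and receptors had medians of 0.583%, 1.22%, 0.497% and 0.593%, and the 11 tiles of 11 of 40 growth suppressors 0.241%, 0.436%, 0.463% and 0.735%. Each median can come from a different gene. Tile by tile, the median leukemic difference of the growth suppressors was 0.0373 points from the nonleukemic double mutant, with 6 of 11 tiles higher. It was 0.160 points from Nras G12D (7 of 11 higher) and 0.150 from the Tet2 knockout (6 of 11 higher). The growth suppressor medians lie within the range of the mitochondrial levels, 0.222% to 1.0015%. No tile of these lists was called in any of the 6 comparisons. Of all 10806 tiles, 0, 0, 0, 5, 2 and 3 were called, and of all tested tiles 0% to 7.5% in a given direction, so nothing is read from the lack of calls.

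Within the lists a few small differences passed an adjusted p under 0.05 in the quasi-binomial test, all in leukemic comparisons. There 0.163% to 9.22% of all tested tiles passed in a given direction. Whether they passed with limma is not given here. The list genes named from here to Spry2 were singled out after their values were seen. Msx1, a homeobox gene of limb and tooth development, read 0.939%, 0.701% and 0.845% in Nras G12D, 0.388%, 0.360% and 0.702% in the Tet2 knockout, 0.337%, 0.625% and 0.813% in the nonleukemic and 1.81%, 1.09% and 1.57% in the leukemic double mutant. The leukemic libraries were above all others, with adjusted p of 0.0395 against the nonleukemic double mutant and 0.015 against the Tet2 knockout, and 0.152 against Nras G12D. Tlx1, a homeobox gene known as an oncogene of T-cell leukemia, was at 2.76% in the leukemic double mutant and 1.27% in the Tet2 knockout (adjusted p 0.039). Its level was 2.20% in Nras G12D and 2.47% in the nonleukemic double mutant (adjusted p 0.505 and 0.747 for the leukemic difference), so the Tet2 knockout was the low group. Hic1, a transcriptional repressor often methylated in cancer, was lower in the leukemic double mutant than in the Tet2 knockout, at 1.82% against 4.49% (adjusted p 0.040). It was at 2.98% in Nras G12D and 3.17% in the nonleukemic double mutant (adjusted p 0.320 and 0.258 for the leukemic difference).

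Among blood regulators, Runx1, a transcription factor needed for definitive blood formation, read 0.985%, 2.17% and 3.42% in Nras G12D, 1.29%, 6.87% and 2.55% in the Tet2 knockout, 1.28%, 1.19% and 1.57% in the nonleukemic and 0.583%, 0.9995% and 0.730% in the leukemic double mutant. Its leukemic minus Tet2 knockout difference had an adjusted p of 0.052, and Tet2 knockout replicate 2 was its highest library. Spry2, a feedback inhibitor of Ras and MAPK signalling, read 0%, 0.110% and 0.0711% in Nras G12D, 0.364%, 0.119% and 0.0244% in the Tet2 knockout, 0.0761%, 0.330% and 0.0484% in the nonleukemic and 0.595%, 0.615% and 0.0171% in the leukemic double mutant. Leukemic replicates 1 and 2 were the highest and replicate 3 was among the lowest, and the difference from the nonleukemic double mutant had an adjusted p of 0.472.

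The tiles nearest the threshold of 10% had levels spread around it. Just inside were chr2:74513000-74513999, whose centre is 6880 bp from the matched start of Hoxd11, with a 9-library mean of 9.98%, and the tile of Phox2a, a homeobox gene of autonomic neurons, with 9.97%. Just outside were chr9:55393000-55393999 with 10.005% and chr7:128536000-128536999 with 10.036%. Phox2a read 7.41% to 12.04% in Nras G12D, 7.04% to 10.6% in the Tet2 knockout, 9.78% to 11.1% in the nonleukemic and 4.62% to 9.14% in the leukemic double mutant.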

How the data were processed

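The deposited tables give, for every CpG and strand, the read count as coverage and the shares calling C and T in percent, per the file headers. The submitters' processing notes name build mm9 (NCBIM37) and Bismark, with no version. Per the labels' protocols, MspI fragments of 150 to 400 bp were bisulfite converted, amplified and read for 50 bp. No molecular identifiers are named, so PCR copies count as reads and intervals cover counting error only. All listed positions have at least 10 reads.

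Read counts were recomputed from coverage and percent, strands were added per CpG, and autosomal CpGs with 10 reads in all 12 libraries were summed in 1000 bp tiles. Tiles with at least 3 CpGs were tested with a quasi-binomial model over all 4 groups (8 residual degrees of freedom), with dispersion moderated as in limma's squeezeVar and floored at 1, two-sided F tests for 6 contrasts and Benjamini-Hochberg adjustment over all 81162 tiles. The code was tested on simulated data. A call needed 10 points between group means beside an adjusted p under 0.05. Tiles were named where they were among the 5 largest called rises or 2 largest falls of a contrast, the 3 largest without overlap by 5 points for each of 14 ways to set some groups above the others, single-library gains, or nearest the 10% threshold. The members and lists were chosen with earlier results of these data known. Promoters were matched by CpG spacing with at least 10 CpGs: 6083 of 13800 RefSeq sequences matched at 1 place, none on a wrong chromosome (0), and 98.2% of neighbouring matched pairs kept their reference spacing within 1000 bp. Replicates of a group differed beyond sampling noise. Alternatives were other coverage limits, limma, a fit on the libraries compared, a replicate block, shifted tiles, a 5 point difference, another member rule, and each library left out. Fits without the leukemic group and without 3 libraries with chromosome Y reads were chosen after seeing the data. Software was limma 3.58.1 in R 4.3.3 and, in Python 3.11.15, numba 0.67.0, pandas 2.3.3, SciPy 1.17.1 and NumPy 2.4.6.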

Additional observations from a re-analysis of the deposited data

How the results depend on the processing

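The 3 comparisons among groups without leukemia kept a count of 0 tiles called higher under every alternative run, except that leaving out 1 library gave 0 to 1 for the nonleukemic double mutant against Nras G12D and against the Tet2 knockout (1 without nonleukemic double mutant replicate 3), and 0 to 0 for the Tet2 knockout against Nras G12D. The counts of tiles called higher in the leukemic double mutant were 2 against the nonleukemic double mutant, 2 against Nras G12D and 3 against the Tet2 knockout. In the same order they were 0, 0 and 0 with limma on log2((methylated + 1)/(unmethylated + 1)), 1, 0 and 0 with fits on the 6 libraries compared, 0, 0 and 0 with tiles shifted by 500 bp, 0, 0 and 1 with tiles chosen on all 12 libraries, and 1, 1 and 0 without the 3 libraries with chromosome Y reads. With the replicate block they were 1, 1 and 3. Deviations of same-numbered libraries from their group means correlated at -0.01 to 0.02 over all tested tiles. Such values show no shared deviation but cannot tell whether same-numbered samples were paired. Leaving out 1 library gave 1 to 5 (5 without leukemic replicate 3), 1 to 2, and 2 to 4. A coverage of 20 reads, the high-coverage filter and a 5 point minimum kept these counts within 1.5 times, and with 5 points the tiles called lower rose from 3 to 9, from 0 to 3 and from 0 to 17. The 9 named differences kept their direction under all 14 alternatives run for each, and the cause of each lost call was not tested. Levels under 1% lie in the range of the background: mitochondrial CpGs read at 0.222% to 1.0015%.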
